A study of Mus musculus with 15 samples.

Results

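Matricellular and fibronectin matrix genes were followed in tumor nodules of mouse lung. The group comprised 10 genes listed by name, Thbs1, Thbs2, Tnc, Postn, Sparc, Spp1, Fn1, Vcan, Mgp and Ecm1. Of these, 9 had an array probe set (transcript cluster) naming that gene alone, out of 22180 such genes in all. Each of the 9 had 1 cluster, and Spp1, which encodes osteopontin, was not analysed here.

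RNA was measured on 15 Affymetrix Mouse Gene 2.0 ST arrays, each of 1 nodule cut by laser microdissection from formalin-fixed, paraffin-embedded lung. The mice had been inoculated with D2.A1 or D2.OR cells, mammary cancer lines of a single BALB/c-derived hyperplastic alveolar nodule lineage, of which D2.A1 is metastatic and D2.OR becomes dormant in lung. Before inoculation the cells had been kept for 3 to 5 days in 3D culture on basement membrane extract (primed, 3D) or on 2D plastic (unprimed, 2D). The arrays covered D2.A1 3D (spindle 2, epithelial 2), D2.A1 2D (spindle 3, epithelial 3), D2.OR 3D (3 nodules, numbered 1 to 3) and D2.OR 2D (2 nodules, numbered 2 and 3), and the labels describe every D2.OR nodule as spindle. Each line is a single cell line, and a nodule holds tumor cells together with cells of the host lung. In such mixed tissue, fewer cells of a type and less RNA per cell cannot be told apart. The D2.A1 groups held more nodules than mice and the labels do not say which nodule came from which mouse, so some D2.A1 nodules share a mouse. The p-values of comparisons between lines or cultures, which treat nodules as independent, are therefore too small, and those between morphologies may be off in either direction.

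Matricellular proteins are secreted into the extracellular matrix, where they act on cells through integrins, syndecans and growth factors rather than by building fibers. Fibronectin, in contrast, is assembled into fibrils that cells grip through integrins, and several matricellular proteins bind to it. In tumors these proteins are made both by cancer cells and by fibroblasts, and in mouse lung periostin and tenascin C are known for their part in the niche of disseminated breast cancer cells.

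Values are log2 signals after Robust Multi-array Average (RMA) normalization, so a difference of 1 is a doubling. The array medians lay between 1.81 and 1.91, and the median gene had a mean of 1.94. Tnc (mean 1.88) and Vcan (mean 1.73) lay below it, so their differences are between weak signals. The keratin Krt8 is a marker of epithelium as well as of mammary tumor, so it does not measure tumor content alone. It was at 4.15 to 6.02 in the 10 D2.A1 nodules. In nodules 1, 2 and 3 of D2.OR 3D it was at 5.85, 3.64 and 5.57, and in D2.OR 2D nodules at 3.66 and 3.57. The epithelial adhesion gene Epcam was at 1.55 to 2.10 in all 15 nodules, close to the median gene. D2.OR 3D nodule 2 stood apart from the other primed D2.OR nodules. Its mean over 6 heart and skeletal muscle markers was 4.53, against 2.05 to 3.14 in the other nodules. Its mean over 5 platelet markers was 3.10, against 1.94 to 2.32 elsewhere, and it had the lowest array weight of all arrays (0.325). Results that rest on it are given with and without it, a choice made after the values were seen. Both D2.OR 2D nodules had the same weight (0.675), so the weights could not single out either of them. Other nodules stood apart too. The mean of 6 fat cell markers was 7.29 in D2.OR 2D nodule 2, against 1.72 to 4.44 in the other nodules. The mean of 6 lymphocyte markers was 5.34 in D2.OR 2D nodule 3, against 1.76 to 3.70 elsewhere.

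The genes fell into a set high in D2.A1 nodules (Thbs1, Mgp, Ecm1 and Fn1), a set highest in D2.OR 3D nodules 1 and 3 (Postn, Tnc and Sparc, with Thbs2 partly), and Vcan, which was weak throughout. This grouping was made after the values were seen. Of the 10 genes, 7 have a proximal promoter in the RefSeq-derived sequences used here (build GRCm38.p6, 250 bases before to 50 bases after the transcription start). Thbs1, Fn1 and Mgp are named only. The promoters of 3 genes of the second set and of Ecm1, from the first set, are shown so that the regulatory letters of both sets can be read side by side. Capitals mark TATAAA (the letters of the TATA box), CAGACA (which contains the CAGAC core bound by SMAD proteins) and TGANTCA (the AP-1 site). They were searched on both strands and anywhere in the window, each line running 5′ to 3′ on the gene's own strand.
Postn (chr3:54360857-54361156, plus strand): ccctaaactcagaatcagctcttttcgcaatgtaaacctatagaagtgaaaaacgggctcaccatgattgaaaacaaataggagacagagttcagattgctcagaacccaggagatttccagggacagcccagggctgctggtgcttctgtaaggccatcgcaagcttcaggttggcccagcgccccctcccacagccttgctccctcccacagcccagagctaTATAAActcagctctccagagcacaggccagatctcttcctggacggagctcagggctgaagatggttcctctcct
Thbs2 (chr17:14694213-14694512, minus strand): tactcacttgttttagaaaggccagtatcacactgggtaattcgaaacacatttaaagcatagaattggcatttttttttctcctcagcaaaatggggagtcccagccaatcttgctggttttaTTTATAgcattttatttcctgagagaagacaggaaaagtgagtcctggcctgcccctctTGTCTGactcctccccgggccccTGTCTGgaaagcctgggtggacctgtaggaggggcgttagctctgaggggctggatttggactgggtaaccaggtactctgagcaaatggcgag
Tnc (chr4:64046887-64047186, minus strand): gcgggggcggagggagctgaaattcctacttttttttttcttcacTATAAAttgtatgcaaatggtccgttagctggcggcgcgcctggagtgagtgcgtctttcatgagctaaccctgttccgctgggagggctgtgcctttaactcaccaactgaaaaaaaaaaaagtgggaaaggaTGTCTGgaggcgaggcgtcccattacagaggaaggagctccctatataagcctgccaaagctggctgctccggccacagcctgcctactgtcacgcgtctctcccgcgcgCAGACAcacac
Ecm1 (chr3:95739520-95739819, minus strand): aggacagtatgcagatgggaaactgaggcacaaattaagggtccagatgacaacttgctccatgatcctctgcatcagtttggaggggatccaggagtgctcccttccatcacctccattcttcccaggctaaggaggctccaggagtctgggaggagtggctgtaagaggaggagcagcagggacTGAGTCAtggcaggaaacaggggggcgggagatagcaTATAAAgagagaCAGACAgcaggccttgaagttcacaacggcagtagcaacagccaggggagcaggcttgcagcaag

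The 7 genes have 10 windows in all, of which these 4 were picked. A TATAAA match is in all 4 windows shown and in 6 of the 10, with none in the windows of Sparc and Vcan, against 13.6% of all 32851 promoters of this length. In Thbs2 the match reads on the opposite strand and lies near the middle of the window, well before the start. In Tnc it lies near the upstream end, farther still from the start. The distance to the start was not used in the count, so a TATAAA match need not be a TATA box. The CAGACA letters, found in 21.0% of all promoters, occur in Thbs2, Tnc, Ecm1, Sparc and Spp1 (6 of the 10 windows), and not in Postn or Vcan. TGANTCA, found in 7.81% of promoters, occurs in Ecm1 alone among the 7 genes. The motifs do not overlap one another in these windows. Postn, Tnc and Spp1 each have a second annotated start. The other Postn window has none of the 3 motifs. The other Tnc window overlaps the one shown and holds the same TATAAA match and 1 of its CAGACA matches, so these sites are counted in both windows. By gene, TATAAA and CAGACA are each found in 5 of the 7. Both these motifs are in the first Spp1 window and none of the 3 is in its second. Such matches describe letters only.

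**Figure D1:**
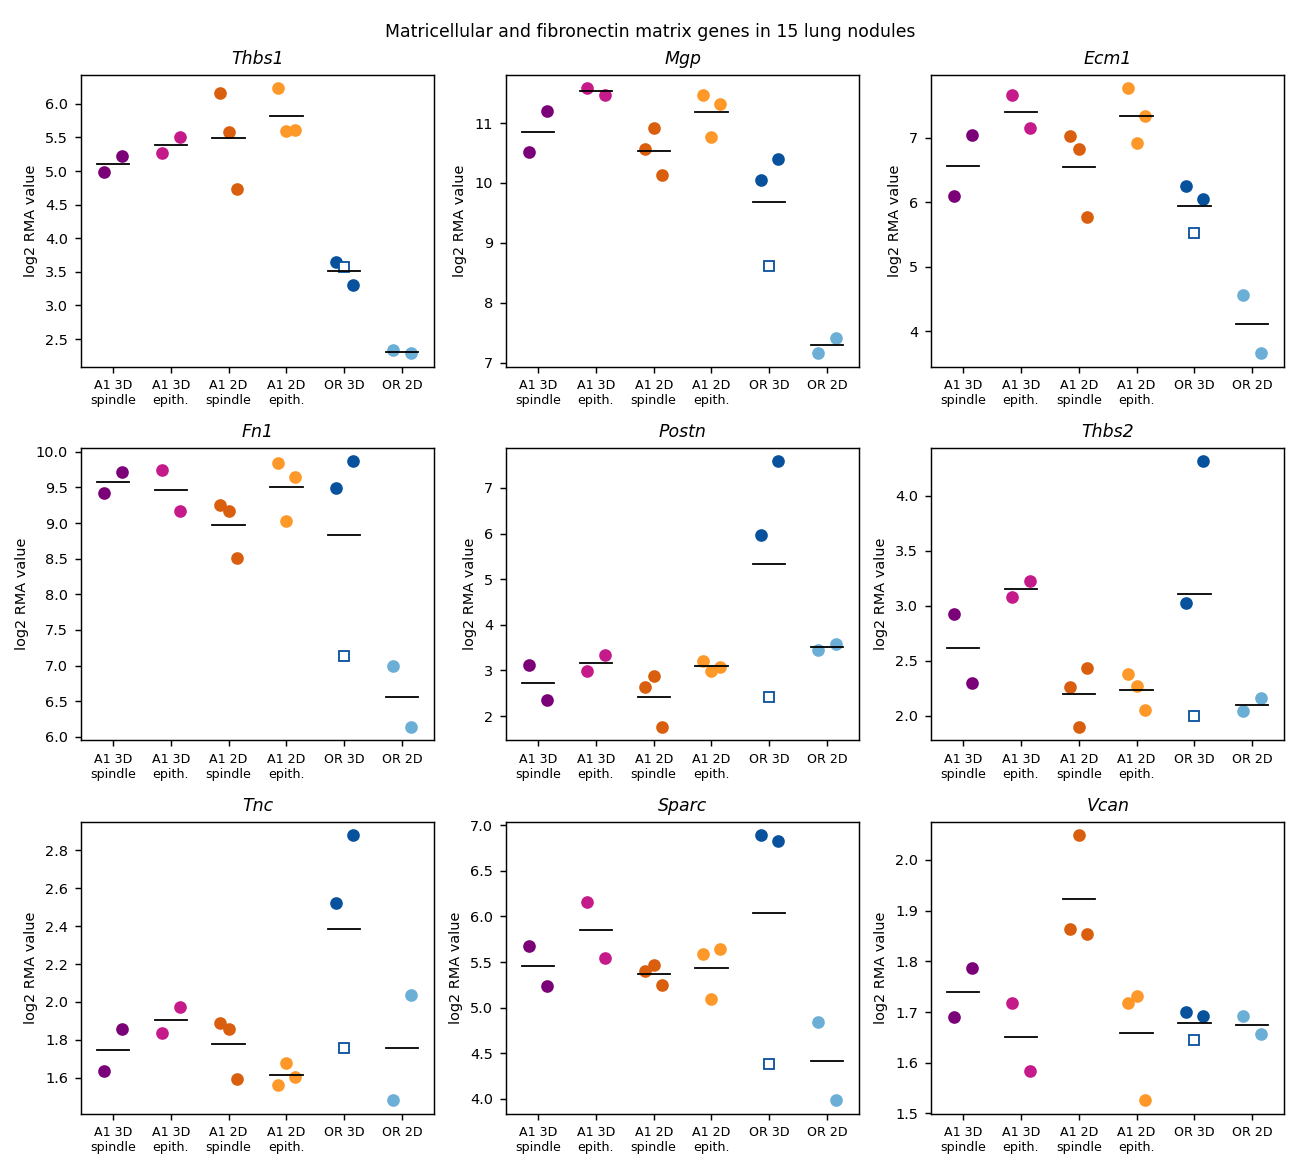
Log2 RMA value (vertical axis, own scale per panel) of the 9 measured genes in the 6 groups of nodules (horizontal axis). Points are nodules, bars are group means, and the open square is D2.OR 3D nodule 2. Thbs1 lies at 4.74 or above in all D2.A1 nodules and at 3.65 or below in all D2.OR nodules, while Postn reaches 5.96 and 7.58 only in D2.OR 3D nodules 1 and 3.

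The first question was whether the genes differ between nodules of the metastatic and of the dormant line. In D2.A1 nodules, taken over both cultures and morphologies, 4 of the 9 measured genes rose and none fell: Thbs1 and Mgp about as strongly as each other (5.81-fold and 5.82-fold), Ecm1 by 3.84-fold and Fn1 by 3.21-fold. Over all genes, 1.52% rose and 3.67% fell in this comparison (limma, adjusted p under 0.05). The median difference of the 9 genes was 0.31, against 0.02 over all genes. Only Thbs1 had no overlap between lines, which was so for 1.69% of all genes.

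Thbs1 encodes thrombospondin 1, which activates latent TGF-β and binds the receptors Cd36 and Cd47. Thbs1 was at 4.99 and 5.22 in D2.A1 3D spindle nodules, at 5.27 and 5.51 in D2.A1 3D epithelial nodules, at 6.16, 5.58 and 4.74 in D2.A1 2D spindle nodules and at 6.24, 5.60 and 5.61 in D2.A1 2D epithelial nodules, against 3.65, 3.58 and 3.30 in D2.OR 3D and 2.34 and 2.29 in D2.OR 2D nodules. All 10 D2.A1 nodules lay above all 5 D2.OR nodules, and the 2 D2.OR groups did not overlap either. The range of each D2.A1 group overlapped that of the D2.A1 2D spindle nodules. The difference between the lines was 2.54 (SE 0.20, adjusted p = 2.6e-05 by limma), the 9th largest positive difference of all genes.

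Mgp encodes matrix Gla protein, a vitamin K-dependent inhibitor of calcification. Mgp was at 10.51 and 11.20 in D2.A1 3D spindle nodules, at 11.59 and 11.47 in D2.A1 3D epithelial nodules, at 10.57, 10.91 and 10.14 in D2.A1 2D spindle nodules and at 11.48, 10.76 and 11.32 in D2.A1 2D epithelial nodules, against 10.06, 8.61 and 10.41 in D2.OR 3D and 7.15 and 7.42 in D2.OR 2D nodules. D2.OR 3D nodule 3 was above 1 D2.A1 nodule and below the other 9, nodule 1 lay just below the D2.A1 range and nodule 2 well below it, and both D2.OR 2D nodules were lower still. The difference was 2.54 (SE 0.27, adjusted p = 0.00021 by limma), the 8th largest positive difference.

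Ecm1 encodes extracellular matrix protein 1, a secreted glycoprotein that binds perlecan. Ecm1 was at 6.09 and 7.05 in D2.A1 3D spindle nodules, at 7.66 and 7.15 in D2.A1 3D epithelial nodules, at 7.03, 6.83 and 5.78 in D2.A1 2D spindle nodules and at 7.78, 6.92 and 7.34 in D2.A1 2D epithelial nodules, against 6.26, 5.53 and 6.05 in D2.OR 3D and 4.56 and 3.66 in D2.OR 2D nodules. D2.OR 3D nodules 1 and 3 thus lay within the D2.A1 range, at its lower end. The difference was 1.94 (SE 0.26, adjusted p = 0.0011 by limma).

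Fn1, the fibronectin gene, was at 9.42 and 9.72 in D2.A1 3D spindle nodules, at 9.75 and 9.17 in D2.A1 3D epithelial nodules, at 9.25, 9.17 and 8.51 in D2.A1 2D spindle nodules and at 9.85, 9.02 and 9.65 in D2.A1 2D epithelial nodules, against 9.49, 7.14 and 9.87 in D2.OR 3D and 6.99 and 6.14 in D2.OR 2D nodules. Here D2.OR 3D nodule 3 was the highest of all 15 nodules and nodule 1 lay inside the D2.A1 range, while the other 3 D2.OR nodules were below all D2.A1 nodules. The difference was 1.68 (SE 0.38, adjusted p = 0.024 by limma). The Fn1 call was lost without D2.A1 3D spindle nodule 2, D2.A1 3D epithelial nodule 1 or D2.OR 2D nodule 3 (adjusted p 0.054, 0.062 and 0.101 by limma).

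The other 5 genes did not pass between the lines. Postn differed by -1.57 (SE 0.62, adjusted p = 0.20), Tnc by -0.31 (adjusted p = 0.35), Sparc by 0.31 (adjusted p = 0.73), Thbs2 by -0.06 (adjusted p = 0.95) and Vcan by 0.07 (adjusted p = 0.67, all by limma). Without D2.OR 3D nodule 2, Postn fell by 2.29 (adjusted p = 0.00048) and Tnc fell by 0.47 (adjusted p = 0.025) in D2.A1 nodules, and the 4 genes that rose still passed, Fn1 with a difference of 1.26. The sign of Sparc turned without that nodule (-0.10, adjusted p = 0.78), and Thbs2 was at -0.34 (adjusted p = 0.39). Over the alternatives tried, Sparc changed sign in 2 and Thbs2 in 3 (-0.34 to 0.24). In the fit without D2.OR 3D nodule 2, 7.88% of all genes passed in either direction.

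Host cell markers also differed between the lines. All 6 lymphocyte markers fell in D2.A1 nodules, and the mean of these markers was 1.76 to 2.23 in D2.A1 nodules and 3.18 to 5.34 in D2.OR nodules. Of the 6 fat cell markers 4 fell, with means of 1.72 to 2.09 in D2.A1 nodules and 2.90 to 7.29 in D2.OR nodules. Of the 10 fibroblast markers 3 fell (Dcn, Dpt and Inmt), with means of 3.12 to 3.81 in D2.A1 and 3.47 to 5.59 in D2.OR nodules. Endothelial Pecam1 and Kdr (2 of 6), pericyte and smooth muscle Rgs5 and Des (2 of 8), alveolar type II Napsa (1 of 6) and macrophage Lyz2 (1 of 8) also fell. Mesothelial Msln (1.12, adjusted p = 0.0034, 1 of 6) and macrophage Mertk (0.36, adjusted p = 0.026 by limma) rose, and no platelet, cartilage, epithelial or muscle marker passed. The part of these cells in the differences of the matrix genes was not tested.

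Since all D2.OR nodules are labelled spindle, the 5 spindle nodules of D2.A1 were also set against them. Thbs1 (difference 2.39, adjusted p = 0.00017), Mgp (2.21, adjusted p = 0.0021) and Ecm1 (1.53, adjusted p = 0.013) rose, so 3 of 9 genes rose and none fell, with 1.09% of all genes rising and 3.12% falling (limma). Thbs1 was the one gene without overlap, as were 4.29% of all genes. Fn1 had a difference of 1.58 that did not pass (adjusted p = 0.070), nor did Postn (-1.84, adjusted p = 0.19), Tnc (-0.31), Thbs2 (-0.20), Sparc (0.19) and Vcan (0.15), the last 4 with adjusted p of 0.30 to 0.86. The signs of Sparc (-0.22 without D2.OR 3D nodule 2, adjusted p = 0.56) and Thbs2 (-0.48 to 0.10) changed under some alternatives. The Ecm1 call was lost without D2.A1 3D spindle nodule 2 (adjusted p = 0.064 by limma), and without D2.OR 3D nodule 2 Fn1 rose (1.16, adjusted p = 0.013), Postn fell by 2.57 (adjusted p = 0.00064) and Tnc fell by 0.47 (adjusted p = 0.046). Here too nodules are not all independent and the p-values are too small.

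The comparison between lines was then made within each culture. Among unprimed nodules (2D), the same 4 genes rose in D2.A1: Mgp by 3.58 (SE 0.39, 11.9-fold, adjusted p = 0.00039), Thbs1 by 3.34 (SE 0.29, 10.1-fold, adjusted p = 8.6e-05), Ecm1 by 2.84 (SE 0.38, 7.14-fold, adjusted p = 0.0014) and Fn1 by 2.68 (SE 0.56, 6.40-fold, adjusted p = 0.018, all by limma). None fell, and over all genes 0.996% rose and 3.2% fell. Sparc (0.99), Postn (-0.76), Vcan (0.12), Thbs2 (0.11) and Tnc (-0.06) did not pass (adjusted p 0.41 to 0.95). In 6 of the 9 genes, these 4 with Postn and Sparc, the 6 D2.A1 2D nodules did not overlap the 2 D2.OR 2D nodules, and neither did they for 17.4% of all genes. The D2.OR side rests on 2 nodules, and without nodule 3 of them Fn1 did not pass (2.25, adjusted p = 0.16). Without D2.OR 3D nodule 2, which lies on neither side of this comparison, Sparc passed (adjusted p = 0.028 by limma). The Sparc difference of 0.99 was unchanged, since that nodule adds only to the spread. The p-values are too small here for the reason given above. Of the host markers, Sftpc (5.02, adjusted p = 0.0058) and Sftpb (3.53, adjusted p = 0.0035) of 6 alveolar type II markers, Msln (1.75, adjusted p = 0.0027) of 6 mesothelial and Tcf21 (0.45, adjusted p = 0.028) of 10 fibroblast markers rose with them (limma). The mean of the alveolar type II markers was 3.14 to 4.71 in D2.A1 2D nodules and 2.63 to 2.71 in D2.OR 2D nodules. All 6 lymphocyte, 4 of 6 fat cell, 2 of 6 endothelial, 2 of 8 smooth muscle and pericyte and 2 of 10 fibroblast markers fell. The part of these cells was not tested.

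Among primed nodules (3D), only Thbs1 rose in D2.A1 (1.74, SE 0.27, 3.33-fold, adjusted p = 0.015 by limma), and none of the 9 genes fell, against 0.194% of all genes that rose and 0.252% that fell. The Thbs1 call was lost without any 1 of 6 of the 7 nodules compared (adjusted p 0.051 to 0.077 by limma). It remained without D2.OR 3D nodule 2. In Thbs1 and Mgp the lines did not overlap, as for 8.47% of all genes. The differences of Mgp (1.50, adjusted p = 0.12), Ecm1 (1.04, adjusted p = 0.30) and Fn1 (0.69, 95% interval -0.45 to 1.83, adjusted p = 0.73) did not pass. Tnc (-0.56), Sparc (-0.38), Thbs2 (-0.23) and Vcan (0.02) did not pass either (adjusted p 0.39 to 0.97). Postn had the largest difference in size of the 9, -2.37 (95% interval -4.22 to -0.53, adjusted p = 0.33), with nodule 2 of D2.OR 3D inside the D2.A1 range. Without that nodule Postn fell by 3.82 (adjusted p = 0.00051), Sparc fell by 1.20 (adjusted p = 0.029) and Tnc fell by 0.88 (adjusted p = 0.016) in D2.A1 3D nodules, where 2.37% of all genes passed. The Fn1 difference then turned to -0.16 (adjusted p = 0.89), and those of Mgp (0.96, adjusted p = 0.088) and Ecm1 (0.84, adjusted p = 0.41) did not pass, while Thbs1 was at 1.77 (adjusted p = 0.011). Of the host markers, 3 fibroblast (Dcn, Dpt and Inmt), 2 fat cell and 1 each of the lymphocyte, macrophage, alveolar type II and smooth muscle and pericyte markers fell in D2.A1 3D, none rose, and their part was not tested. Nodules that share a mouse make these p-values too small.

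**Figure D2:**
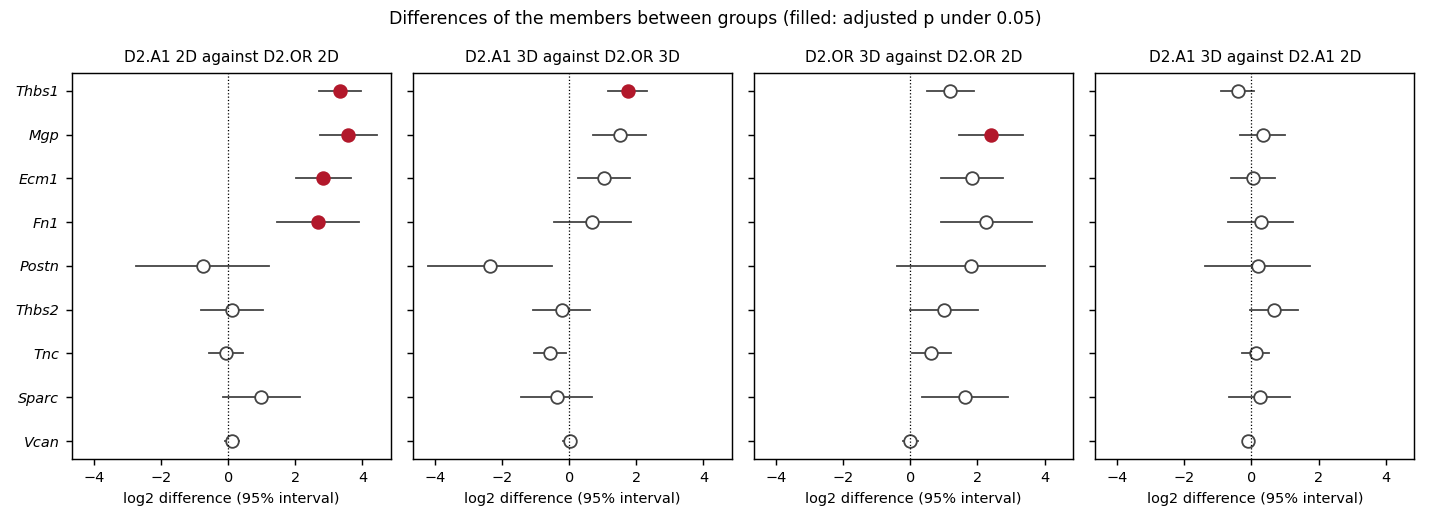
Log2 difference (horizontal axis) of the 9 genes in 4 comparisons, with 95% intervals of the limma fit as lines. Filled points passed an adjusted p of 0.05: Thbs1, Mgp, Ecm1 and Fn1 between lines in 2D, Thbs1 in 3D, Mgp between D2.OR 3D and D2.OR 2D, and none between D2.A1 3D and D2.A1 2D.

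Priming was examined next, first in the dormant line. All 9 genes had a positive difference in D2.OR 3D against D2.OR 2D nodules, with a median of 1.62 against 0.01 over all genes, of which 52.3% were positive. Only Mgp passed (2.40, SE 0.44, 5.29-fold, adjusted p = 0.0486 by limma), so 1 of 9 rose and none fell, against 0.0721% of all genes that rose and 0.203% that fell. That call was lost in 13 of the 15 fits that left out 1 array (adjusted p 0.064 to 0.153). In Thbs1, Fn1, Mgp and Ecm1 the D2.OR 3D nodules did not overlap the D2.OR 2D nodules, which was so for 19.4% of all genes. The differences of Fn1 (2.27, adjusted p = 0.22), Ecm1 (1.84, adjusted p = 0.13), Postn (1.80, adjusted p = 0.67), Sparc (1.62, adjusted p = 0.38), Thbs1 (1.20, adjusted p = 0.21), Thbs2 (1.01, adjusted p = 0.54), Tnc (0.63, adjusted p = 0.47) and Vcan (0.00, adjusted p = 1.00) did not pass.

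Postn, the periostin gene, whose product binds αv integrins and is made chiefly by fibroblasts, showed where the spread lay. Postn was at 5.96, 2.42 and 7.58 in nodules 1, 2 and 3 of D2.OR 3D, against 3.46 and 3.58 in D2.OR 2D nodules. In D2.A1 nodules it was at 1.76 to 3.35. Nodules 1 and 3 were above every other nodule of the series, and nodule 2 was below both D2.OR 2D nodules.

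Sparc encodes osteonectin, a collagen-binding protein. Sparc was at 6.90, 4.38 and 6.82 in D2.OR 3D nodules, against 4.84 and 3.98 in D2.OR 2D nodules, with 5.09 to 6.16 in D2.A1 nodules. Tnc encodes tenascin C, a hexameric glycoprotein with little expression in resting adult tissue. Tnc was at 2.52, 1.76 and 2.88 in D2.OR 3D nodules, against 1.48 and 2.04 in D2.OR 2D nodules, with 1.56 to 1.98 in D2.A1 nodules. In both genes D2.OR 3D nodules 1 and 3 were again the highest of all 15 nodules.

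Thbs2 encodes thrombospondin 2, which inhibits angiogenesis. Thbs2 was at 3.02, 1.99 and 4.32 in D2.OR 3D nodules, against 2.04 and 2.16 in D2.OR 2D nodules. Here nodule 3 was the highest of all, while nodule 1 lay within the range of the D2.A1 3D nodules, which were at 2.92 and 2.30 (spindle) and 3.08 and 3.22 (epithelial). Thbs1 was lowest in D2.OR 2D nodules, whereas Thbs2 in D2.OR 2D nodules lay inside the range of the D2.A1 2D nodules (1.90 to 2.43).

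Without D2.OR 3D nodule 2, 7 of the 9 genes rose in D2.OR 3D against D2.OR 2D nodules, where 2.11% of all genes passed in either direction. Postn rose by 3.25 (adjusted p = 0.0032), Fn1 by 3.11 (adjusted p = 0.00071), Sparc by 2.45 (adjusted p = 0.00087), Ecm1 by 2.04 (adjusted p = 0.041), Thbs2 by 1.57 (adjusted p = 0.037) and Tnc by 0.94 (adjusted p = 0.023), beside Mgp (all by limma). Thbs1 did not pass without it (1.16, adjusted p = 0.17). This fit has 2 nodules on each side.

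**Figure D3:**
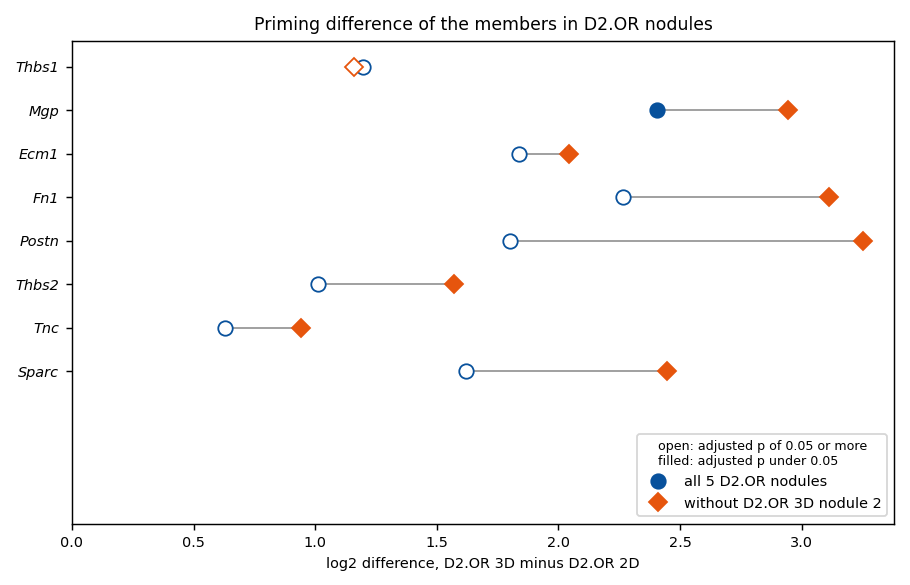
Log2 difference of 8 genes between D2.OR 3D and D2.OR 2D nodules (horizontal axis) with all 5 D2.OR nodules (circles) and without D2.OR 3D nodule 2 (diamonds). Filled symbols passed an adjusted p of 0.05. Mgp passed with all nodules, and 7 genes passed without nodule 2, with Postn moving to 3.25, Fn1 to 3.11 and Thbs1 at 1.16.

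Markers of some host cells also differed between these nodules, and not all in the same direction. The mean of the 10 fibroblast markers was 5.04, 3.90 and 5.59 in nodules 1, 2 and 3 of D2.OR 3D, against 3.57 and 3.47 in D2.OR 2D nodules, with 3.12 to 3.81 in D2.A1 nodules. Of these markers 4, Col1a1, Col1a2, Col3a1 and Lum, were higher in D2.OR 3D nodules 1 and 3 than in any of the other 13 nodules, as were 3 of the 9 genes (Postn, Tnc and Sparc) and 3.09% of all genes. The pattern was not particular to fibroblast markers. Nodules 1 and 3 were likewise highest for 4 of 6 alveolar type II, 2 of 8 macrophage, 2 of 8 smooth muscle and pericyte and 1 of 5 epithelial markers. No marker of the other lists had this pattern. Lum was at 4.17 and 5.70 in those nodules and at 1.91 in nodule 2, whereas 4 other fibroblast markers (Dcn, Pi16, Dpt and Inmt) were highest of all 15 nodules in nodule 2, with Dcn, another proteoglycan gene, at 4.85, 6.20 and 5.53 in nodules 1, 2 and 3 of D2.OR 3D. The mean of the 6 alveolar type II markers was 5.53, 4.60 and 6.03 in D2.OR 3D nodules, against 2.71 and 2.63 in D2.OR 2D nodules, with 2.85 to 4.71 in D2.A1 nodules. The mean of the 6 fat cell markers was 4.29, 4.44 and 2.90 in D2.OR 3D nodules, against 7.29 and 4.20 in D2.OR 2D nodules. Of single markers, Sftpc (6.74, adjusted p = 0.017), Sftpb (4.49, adjusted p = 0.015), Inmt (1.75, adjusted p = 0.0085) and Acta2 (1.82, adjusted p = 0.049) rose in D2.OR 3D against D2.OR 2D nodules (limma). Rgs5, Pecam1 and the lymphocyte marker Cd3d (-1.78, adjusted p = 0.041 by limma) fell. The part of these cells in the differences was not tested.

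**Figure D4:**
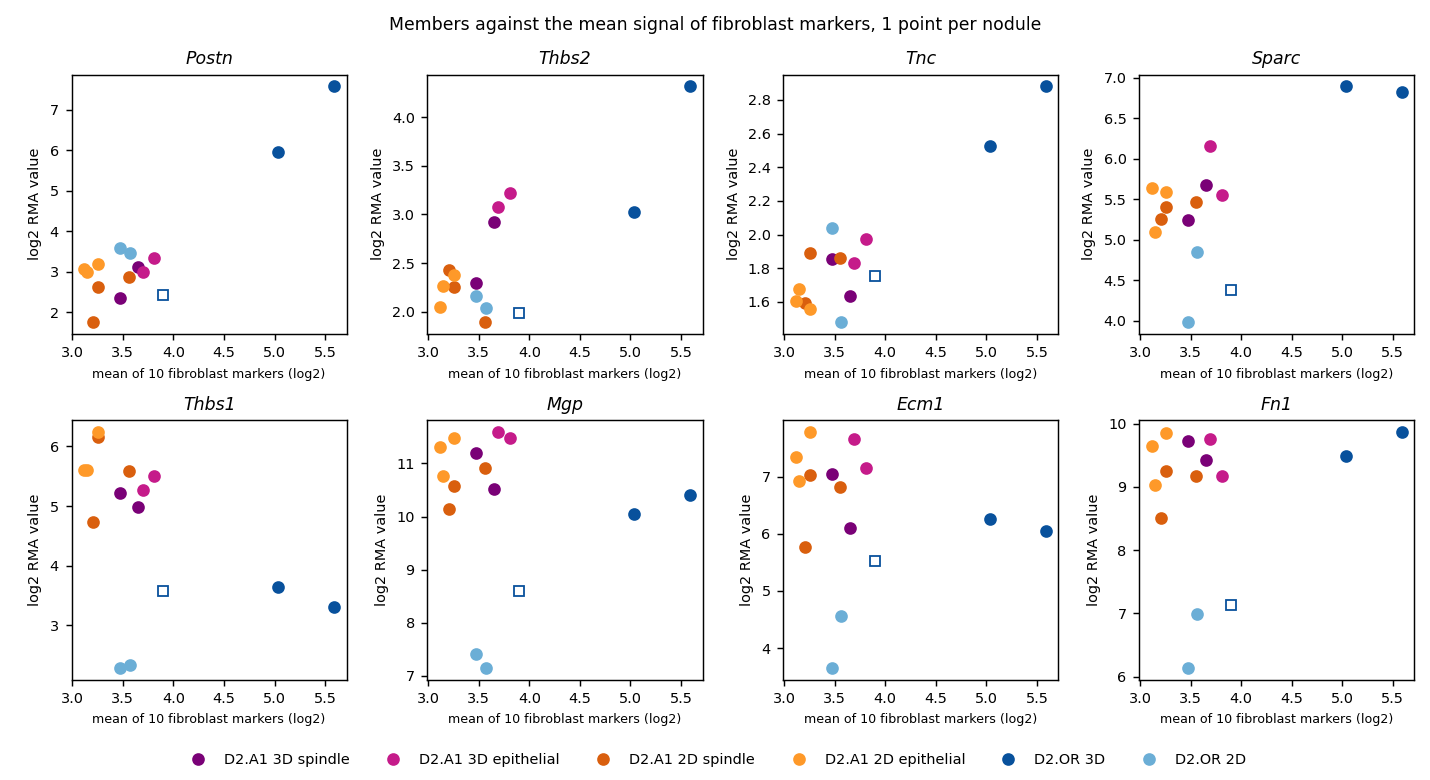
Log2 RMA value of 8 genes (vertical axes) against the mean log2 value of 10 fibroblast markers (horizontal axis), 1 point per nodule, with D2.OR 3D nodule 2 as an open square. D2.OR 3D nodules 1 and 3, at 5.04 and 5.59 on the marker axis, are highest in Postn, Tnc and Sparc, while Thbs1 is below every D2.A1 nodule in them. Alveolar type II markers, not drawn, also had their highest means in these nodules.

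The metastatic line was compared in the same way. None of the 9 genes passed in D2.A1 3D against D2.A1 2D nodules, and of all genes 0.00451% rose and 0% fell (limma). None of the 9 had an unadjusted p under 0.05, which 3% of all genes had with a positive and 2.33% with a negative difference. Thbs2 had the largest difference (0.67, 95% interval -0.05 to 1.39, adjusted p = 0.94), followed by Thbs1 (-0.41, 95% interval -0.90 to 0.08) and Mgp (0.33, 95% interval -0.34 to 1.00). Fn1 (0.28), Sparc (0.25), Postn (0.19), Tnc (0.13), Vcan (-0.10) and Ecm1 (0.04) differed by less. Differences of any size within these intervals cannot be set aside, and nodules that share a mouse make the intervals too narrow.

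Whether priming acted differently in the 2 lines was tested directly, as (D2.A1 3D minus D2.A1 2D) minus (D2.OR 3D minus D2.OR 2D). This contrast was negative for all 9 genes and passed for none, against 0.0586% of all genes with a positive and 0.0361% with a negative difference that passed. The values were -2.07 for Mgp (SE 0.53, adjusted p = 0.24), -1.99 for Fn1 (adjusted p = 0.52), -1.79 for Ecm1 (adjusted p = 0.32) and -1.60 for Thbs1 (SE 0.39, adjusted p = 0.21, all by limma). Postn (-1.61), Sparc (-1.37), Tnc (-0.50), Thbs2 (-0.34) and Vcan (-0.10) had adjusted p of 0.65 to 0.93. At an unadjusted p under 0.05 the first 4 genes passed, as did 3.64% of all genes with a negative and 4.54% with a positive difference. Without D2.OR 3D nodule 2 the difference passed for Postn (-3.06, adjusted p = 0.019), Fn1 (-2.84, adjusted p = 0.0063), Mgp (-2.61, adjusted p = 0.0036) and Sparc (-2.20, adjusted p = 0.0085), beside 1.21% of all genes. It uses the same D2.OR nodules as the comparisons above and adds no separate samples.

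Morphology was compared within D2.A1, where spindle nodules lie at the pleural surface and epithelial ones in the lung tissue. No gene of the 9 passed in spindle against epithelial nodules, nor did any gene of the array (0% in each direction, limma). Ecm1 had the largest difference in size, -0.82 (95% interval -1.47 to -0.17, unadjusted p = 0.018, adjusted p = 0.50 by limma), with 5.78 to 7.05 in the 5 spindle nodules and 6.92 to 7.78 in the 5 epithelial nodules. Mgp followed with -0.66 (95% interval -1.33 to 0.01, adjusted p = 0.64). Vcan, which encodes the hyaluronan-binding proteoglycan versican, was at 1.69 and 1.79 in D2.A1 3D spindle nodules, at 1.72 and 1.58 in D2.A1 3D epithelial nodules, at 1.86, 2.05 and 1.85 in D2.A1 2D spindle nodules and at 1.72, 1.73 and 1.53 in D2.A1 2D epithelial nodules. Its 3 highest nodules were the D2.A1 2D spindle nodules, but the difference between morphologies was 0.18 (unadjusted p = 0.035, adjusted p = 0.61 by limma) on a signal below the median gene. In D2.OR nodules Vcan stayed between 1.64 and 1.70. The other differences were -0.55 for Postn, -0.30 for Thbs1, -0.29 for Thbs2, -0.23 for Sparc, -0.21 for Fn1 and 0.00 for Tnc (adjusted p 0.79 to 1.00). Ecm1 and Vcan were thus the genes at an unadjusted p under 0.05, which 4.36% of all genes had with a lower and 3.45% with a higher value in spindle nodules. The contrast of morphology between cultures, (spindle minus epithelial in D2.A1 3D) minus the same in D2.A1 2D, passed for none of the 9 genes or of the array (limma, adjusted p of 1.00 for each of the 9), and the 9 values ran from -0.50 for Thbs2 to 0.64 for Fn1 (Ecm1 -0.03, 95% interval -1.34 to 1.28). None of the 9 had an unadjusted p under 0.05 there, against 1.95% of all genes with a positive and 2.04% with a negative contrast.

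Among the 10 D2.A1 nodules, Mgp and Ecm1 varied together most closely (Pearson's r 0.89, Spearman's rho 0.93), followed by Fn1 with Mgp (r 0.76, rho 0.70), Fn1 with Ecm1 (r 0.76, rho 0.79) and Thbs1 with Ecm1 (r 0.69, rho 0.56). D2.A1 2D spindle nodule 3 was the lowest of the 10 for Thbs1, Mgp, Ecm1 and Fn1, for Postn and for the keratin Krt8 (4.15). Tnc and Fn1 did not vary together (r 0.02, rho -0.20). These 36 pairs are descriptions over nodules that share a line and in part a mouse.

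Over all 15 nodules, the genes above the median signal whose pattern was most like each member were sought among 11090 genes. They were Cd9 (r 0.95) and Lgals7 (r 0.94) for Thbs1, Gpc1 (r 0.97) and Emp1 (r 0.96) for Mgp, Cd9 and Ahnak (r 0.94 each) for Ecm1, and Kcnma1 and S100a6 (r 0.94 each) for Fn1. Cd9 encodes a tetraspanin, Gpc1 the heparan sulfate proteoglycan glypican 1 and Kcnma1 a calcium-activated potassium channel. Kcnma1 shows the split of the primed D2.OR nodules most widely, at 10.96 to 11.42 in D2.A1 nodules, at 10.04, 5.20 and 10.44 in nodules 1, 2 and 3 of D2.OR 3D, and at 2.82 and 2.40 in D2.OR 2D nodules. For the second set they were Chd9 and Nkd2 (r 0.96 each) for Postn, Nkd2 (r 0.93) and Lum (r 0.91) for Tnc, Plat and Ogn (r 0.92 each) for Thbs2, and Fat1 (r 0.95) and Col6a1 (r 0.94) for Sparc. For Vcan they were Pla2g4a (r 0.83) and Glrx2 (r 0.81). The nodules fall into separate groups, so these values describe likeness of pattern and carry no test.

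Related genes were counted from lists of the same pathway. Of 32 other matricellular genes, 2 rose in D2.A1 against D2.OR nodules, Ccn2 (0.92, SE 0.12, adjusted p = 0.0012), the connective tissue growth factor gene, and Lgals3 (0.60, adjusted p = 0.016), which encodes galectin 3, and 1 fell, Svep1 (-0.51, adjusted p = 0.017). Of 43 other matrix glycoproteins and proteoglycans, 2 rose and 6 fell. The elastin gene Eln (1.14, adjusted p = 0.0075) and the nephronectin gene Npnt (0.41, adjusted p = 0.042) rose. The decorin gene Dcn (-3.04, adjusted p = 9.2e-06) and the nidogen 1 gene Nid1 (-1.52, adjusted p = 0.019) had the largest falls (all by limma). The list medians were 0.04 and -0.03, against 0.02 over all genes. Of all genes, 1.52% rose and 3.67% fell in this comparison.

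Of 25 receptors of the 10 genes, 2 rose and 3 fell, against 1.52% and 3.67% of all genes. Sdc4, which encodes the fibronectin co-receptor syndecan 4, rose by 1.09 (adjusted p = 0.023), and Itgb1, which encodes the β1 subunit of fibronectin-binding integrins, rose by 1.00 (adjusted p = 0.028). Cd36, a thrombospondin receptor that fat cells and macrophages also carry, fell by 2.55 (adjusted p = 0.0089), and Selplg, a leukocyte ligand of P-selectin that also binds versican, fell by 2.18 (adjusted p = 0.0021, all by limma). Of 17 proteases that cleave versican, thrombospondins or osteopontin, none rose and 2 fell, Htra1 (-0.80, adjusted p = 0.045) and Adamts5 (-0.50, adjusted p = 0.0019). None of the 6 genes for the carboxylation or phosphorylation of secreted matrix proteins passed in any comparison in which the lists were counted. At an unadjusted p under 0.05, 1 of these 6 was lower in D2.A1 against D2.OR nodules and none was higher, against 11.1% of all genes lower and 6.79% higher. At that threshold 3 of the 6 were lower in D2.A1 spindle against D2.OR nodules and 2 in D2.A1 3D against D2.OR 3D nodules, with none higher. The share of all genes at that threshold is not given for these 2 comparisons, so these counts cannot be judged against it and are not read as an effect.

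The same lists were counted in the other comparisons. In D2.A1 spindle against D2.OR nodules, the numbers that rose and fell were 0 and 2 of the other matricellular genes, 0 and 5 of the glycoproteins and proteoglycans, 0 and 3 of the receptors and 0 and 1 of the proteases. In 2D they were 2 and 1, 1 and 4, 0 and 3, and 0 and 1. In 3D they were 0 and 0, 0 and 3, 0 and 0, and 0 and 1. Of all genes, 1.09% rose and 3.12% fell in the spindle comparison. These shares were 0.996% and 3.2% in 2D and 0.194% and 0.252% in 3D. No gene of these lists passed between D2.OR 3D and D2.OR 2D, between D2.A1 3D and D2.A1 2D, or between D2.A1 spindle and epithelial nodules (limma). At an unadjusted p under 0.05, 14 of the 43 glycoproteins and proteoglycans and 8 of the 32 matricellular genes were higher in D2.OR 3D against D2.OR 2D nodules, and 1 and 0 were lower, against 4.15% of all genes higher and 5.24% lower.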

How the data were processed

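RNA of 15 lung nodules was measured with 1 array each. The authors ran RMA, and the values they deposited are log2 signals, 1 for each cluster in each nodule (base 2 is inferred from RMA). The submitters' processing notes list Affymetrix Expression Console, RMA and Transcriptome Analysis Console. Versions of these tools are not given in the sources consulted. RMA brings all arrays to a common distribution, which removes any shift common to most genes and narrows differences between weak signals. No detection calls were used, and precision is limited by how few arrays there are.

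Of 41345 clusters, the platform's probe-to-gene table gives 23521 a single gene, 1820 several and 16004 none. The cluster with the highest mean over the arrays was used for each gene. Groups came from the sample titles. Group means were fitted in R 4.3.3 with limma 3.58.1 over all 15 arrays (9 residual and 3.20 prior degrees of freedom), with Benjamini-Hochberg adjustment over 22180 genes and a threshold of 0.05, so small groups borrow the spread of the others. No label says that replicates came from separate mice. The fit was tested on simulated data. The genes and lists were chosen with earlier results of these data known. Members were named with their values in every comparison (as a range in the contrast of morphology), from other lists the 2 largest differences in each direction that passed between the lines, and the 2 genes most like each member. The alternatives were all clusters, only genes above the median gene, another variance prior, array weights, a replicate block, a fit of the compared groups alone, nodules of one number averaged, cyclic loess, median centring, the mean of all clusters of a gene, a one-way test with 2 thresholds, and each array left out in turn. Promoter sequences are from RefSeq (GRCm38.p6). Figures were drawn with matplotlib 3.10.9.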

Additional observations from a re-analysis of the deposited data

How the results depend on the processing

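Groups of 2 or 3 nodules and weak signals limit these results. Over the fits that left out 1 array, the number of the 9 genes that passed ranged from 3 to 6 in D2.A1 against D2.OR, 2 to 6 in D2.A1 spindle against D2.OR, 3 to 5 in D2.A1 2D against D2.OR 2D, 0 to 4 in D2.A1 3D against D2.OR 3D, 0 to 7 in D2.OR 3D against D2.OR 2D and 0 to 4 for the contrast of priming between lines. It was 0 throughout for D2.A1 3D against D2.A1 2D, D2.A1 spindle against D2.A1 epithelial and the contrast of morphology between cultures. Sparc in D2.A1 3D against D2.OR 3D ranged from -1.20 without D2.OR 3D nodule 2, where it passed, to 0.053 without nodule 1, and was 0.017 without nodule 3, where it did not pass. The share of all genes that passed without D2.OR 3D nodule 2 was 7.88% in D2.A1 against D2.OR, 7.54% in D2.A1 spindle against D2.OR and 5.93% in 2D. That share was 2.37% in 3D, 2.11% in D2.OR 3D against D2.OR 2D and 1.21% for the contrast of priming between lines.

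With array weights 5 genes passed in D2.A1 spindle against D2.OR (4 higher, 1 lower), 4 in D2.A1 3D against D2.OR 3D (2 each way), 4 in D2.OR 3D against D2.OR 2D (all higher) and 1 for the contrast of priming between lines. In D2.A1 spindle against D2.OR, 6.78% of all genes passed with array weights, against 4.21% in the fit reported. For the other 3 comparisons the share of all genes is given as a range over the alternatives. It was 0% to 4.29% in D2.A1 3D against D2.OR 3D and 0% to 2.37% in D2.OR 3D against D2.OR 2D. For the contrast of priming between lines it was 0.0135% to 2.02%. A one-way test per gene with Benjamini-Hochberg adjustment gave 2 in D2.A1 against D2.OR, 2 in D2.A1 2D against D2.OR 2D, and 0 in D2.A1 spindle against D2.OR, D2.A1 3D against D2.OR 3D and D2.OR 3D against D2.OR 2D. With the one-way test 1.9% of all genes passed in D2.A1 against D2.OR and 0.0721% in D2.A1 spindle against D2.OR. At the methods' threshold (unadjusted p of 0.05 and 2-fold), that test gave 2 in D2.A1 3D against D2.OR 3D and 3 in D2.OR 3D against D2.OR 2D. With nodules of one number averaged, none passed in either of these comparisons. The Mgp call in D2.OR 3D against D2.OR 2D was also lost over all clusters, with only the groups compared and with median centring, which each left 0. The replicate number as a block left 0 there as well. Same-numbered nodules had a median correlation of -0.01, but these pairs include nodules of different lines and cultures, which cannot share a mouse. The value therefore cannot show whether the numbers mark nodules of a shared mouse. The Fn1 call between the lines was also lost under the replicate block (adjusted p = 0.056 by limma). It was lost with only the groups compared (0.128) and with nodules of one number averaged (0.142) as well. Ecm1 in D2.A1 spindle against D2.OR was lost with only the groups compared (0.056).

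Of 81 pairs of gene and comparison, 47 passed under no setting, and of these 17 changed sign under at least 1 alternative. Among 900 alternative values of the other 34, 817 kept direction and side of the threshold, 44 lost a call, 37 gained one and 2 changed sign. The share of all genes that passed ranged from 1.9% to 11.5% in D2.A1 against D2.OR (5.19% in the fit reported), 0.0721% to 9.63% in D2.A1 spindle against D2.OR (4.21%), 1.08% to 9.75% in 2D (4.20%), 0% to 4.29% in 3D (0.446%) and 0% to 2.37% in D2.OR 3D against D2.OR 2D (0.275%).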
